A study of Homo sapiens with 6 samples.

Results

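Mitochondrial ribosomal proteins are encoded by nuclear genes whose symbols begin with MRPL (large subunit) or MRPS (small subunit). All genes were taken whose single annotated symbol begins with MRPL or MRPS followed by a digit, which gave 75 of the 18132 genes measured. Of these, 74 are protein-coding and 1, MRPL20-AS1, is a long noncoding RNA. Expression was measured on 6 one-colour arrays of A549 cells, an established line of human lung adenocarcinoma. The group sh_LINC00525 holds 3 arrays of cells in which the long noncoding RNA LINC00525 was silenced, called knockdown arrays here. The other group, sh_ctrl, holds 3 arrays of cells given a scrambled control, called control arrays. The titles mark both groups as sh, whereas the treatment text speaks of siRNA. In the genotype field, knockdown replicate 2 carries the name LINC00526 and replicate 3 the name LINC00527. The labels do not say whether replicates were separate cultures, so p-values measure the spread between these arrays, which may be technical.

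The mitochondrial ribosome translates the few messages encoded by mitochondrial DNA, all of which specify core subunits of the respiratory chain and ATP synthase. Its RNAs come from the mitochondrial genome, but its proteins are made in the cytosol and imported, so the assembly of each particle depends on both genomes. Some of its proteins have bacterial counterparts, and others occur only in mitochondrial ribosomes. Symbols do not always show the subunit: MRPS30 and MRPS18A lie in the large subunit of the mammalian particle.

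LINC00525, the silenced RNA, was at 3.67, 3.45 and 3.54 log2 units on knockdown arrays, against 3.86, 3.74 and 3.97 on control arrays. The groups did not overlap for this gene (log2 change -0.30 ± 0.075 SE, limma adjusted p = 0.0372). The values lay within the range of 17 Tag probe sets, controls without a human target, which ran from 2.1 to 4.91. Arrays of 1 group correlated at 0.9986 or more over all genes, and arrays of different groups at 0.9962 or less. Of the epithelial markers, KRT8, KRT18, KRT19 and KRT7 had signals of 9.23 or more on every array, while EPCAM was at 4.84 to 5.54. Among these 5, KRT8 fell by 0.15 (limma adjusted p = 0.0474) and KRT19 rose by 0.29 (adjusted p = 0.00409). Of 7 markers of leukocytes, fibroblasts and endothelium, 0 passed the test, which compares the groups and does not show whether a cell type is present. The defining leukocyte marker PTPRC was at 2.25 to 2.59. Another leukocyte marker, CD14, had means of 6.19 on knockdown and 6.25 on control arrays, and exceeded the highest Tag value on every array. The rest of these markers lay within the Tag range. All 75 mitoribosomal genes had a signal above the highest Tag value on all 6 arrays.

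Most mitoribosomal genes had slightly lower values on the knockdown arrays, with a median SE of 0.039 for the change of a member. Of the 75 members, 9 fell, 0 rose and 66 did not pass the test (limma, adjusted p under 0.05 over all 18132 genes). The share of members that fell was 12%, against 6.83% of all genes, while 5.76% of all genes rose and 12.6% changed in either direction. The fitted log2 change was below 0 for 67 of 75 members (89.3%) and for 55.2% of all genes. The median log2 change was -0.06 over the members and -0.01 over all genes. No member reached an absolute log2 change of 0.2: the changes ran from -0.19 for MRPS11 to 0.06 for MRPS5, or from a signal that fell by 12.5% to one 4.01% higher. When any 1 of the 6 arrays was left out, 0 or 1 member passed (0 to 1.33%), beside 2.60% to 4.37% of all genes called lower. In those fits 18 to 23 members were lower at an unadjusted limma p under 0.05, and the median stayed at -0.08 to -0.06. All genes were counted at that unadjusted threshold only in the reported comparison, where 28 members and 2805 of 18132 genes were lower. After cyclic loess, which removes differences that depend on signal strength, 0 members passed in limma (at an unadjusted p under 0.05, 16 were lower and 1 higher) and the median was -0.03, with 59 of 75 members still negative. In that fit 5.08% of all genes were lower, and 2184 genes were called in all.

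The ranks of the arrays showed the same small difference without a threshold. Every knockdown array lay below every control array for 38 members (50.7%), against 17.9% of all genes. Every knockdown array lay above every control array for 0 members, against 12.9% of all genes. The median SE was 0.039 among members and 0.051 among all genes, so groups separate more readily among members. The shares were not compared among genes of like signal. Relative to each gene's mean over the 6 arrays, the median member was at -0.04, -0.048 and -0.025 on knockdown replicates 1, 2 and 3, and at 0.048, 0.033 and 0.023 on control replicates 1, 2 and 3. These array medians did not overlap between groups. Over all genes the same medians were 0.005, -0.017 and -0.01 on knockdown arrays and 0.013, 0.0083 and -0.0017 on control arrays. In bulk RNA, fewer cells with a transcript and less of it per cell cannot be told apart.

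**Figure D1:**
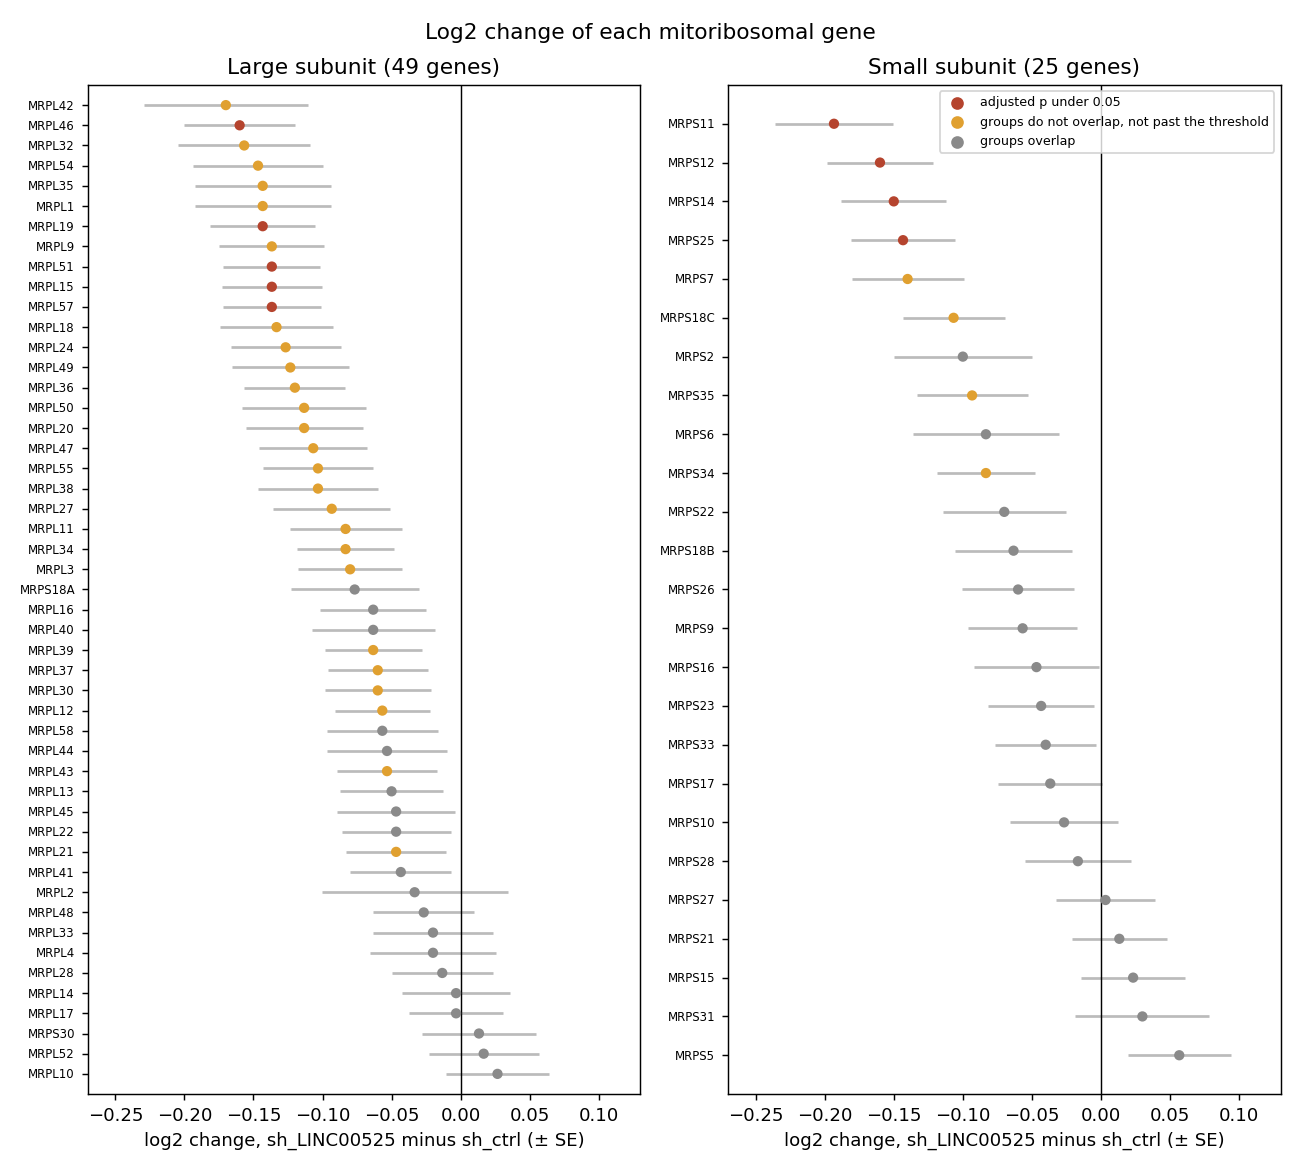
Log2 change of each coding mitoribosomal gene, knockdown minus control (x axis, in log2 units), with bars of 1 SE, for the 49 genes of the large subunit (left) and the 25 of the small subunit (right). Red points passed the test, yellow points did not pass but had every knockdown array below every control array, and grey points overlapped between groups. Most points lie left of 0, and none lies beyond -0.20.

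Among small-subunit genes that fell, 3 of the 4 encode proteins with bacterial counterparts. MRPS11, a protein of the small subunit's platform, was at 9.17, 9.06 and 9.07 log2 units on knockdown arrays and at 9.30, 9.30 and 9.28 on control arrays. Its change was -0.19 ± 0.043 (SE, limma adjusted p = 0.0252), and every knockdown value lay below every control value. MRPS11 was the 1 member to stay past the threshold when knockdown replicate 1 was left out (adjusted p = 0.0211), and leaving out any other array ended its call (adjusted p of 0.0677 to 0.0859).

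MRPS12, whose bacterial counterpart lies at the decoding centre, was at 10.25, 10.24 and 10.29 on knockdown arrays and at 10.45, 10.43 and 10.38 on control arrays. The groups did not overlap, and the change was -0.16 ± 0.039 (SE, limma adjusted p = 0.0347). MRPS14 was at 8.52, 8.51 and 8.50 on knockdown arrays and at 8.66, 8.70 and 8.62 on control arrays. The 3 knockdown values of MRPS14 were the tighter set (8.51 ± 0.010 against 8.66 ± 0.040, SD, n = 3 each), and limma gave an adjusted p of 0.0411. MRPS25, a protein found only in mitochondrial ribosomes, was at 7.74, 7.78 and 7.81 on knockdown arrays and at 7.94, 7.92 and 7.90 on control arrays, and fell by 0.14 ± 0.038 (SE, limma adjusted p = 0.0473).

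Of the 5 large-subunit genes that fell, MRPL46, MRPL51 and MRPL57 encode proteins with no bacterial counterpart. MRPL46 was at 8.34, 8.35 and 8.40 on knockdown arrays, against 8.53, 8.56 and 8.48 on control arrays. It fell by 0.16 ± 0.040 (SE, limma adjusted p = 0.0399). MRPL51 was at 10.82, 10.78 and 10.79 on knockdown arrays, against 10.92, 10.94 and 10.94 on control arrays. MRPL57 was at 9.52, 9.5 and 9.55 on knockdown arrays, against 9.67, 9.65 and 9.66 on control arrays. Both fell by 0.14 on the log2 scale (limma adjusted p = 0.0436 for MRPL51 and 0.0455 for MRPL57), and in neither did the groups overlap.

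MRPL15 and MRPL19 have bacterial counterparts. MRPL15 was at 9.53, 9.55 and 9.59 on knockdown arrays, against 9.70, 9.69 and 9.69 on control arrays. The SD was 0.031 on knockdown arrays and 0.0058 on control arrays (n = 3 each), and MRPL15 fell by 0.14 ± 0.036 (SE, limma adjusted p = 0.0481). MRPL19 was at 9.84, 9.85 and 9.84 on knockdown arrays, against 10.00, 10.02 and 9.94 on control arrays. It fell by 0.14 ± 0.038 (SE, limma adjusted p = 0.0485). MRPL46, MRPL51, MRPL57, MRPL15, MRPL19, MRPS12, MRPS14 and MRPS25 lost their call when any 1 of the 6 arrays was left out (adjusted p of 0.0574 to 0.151).

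**Figure D2:**
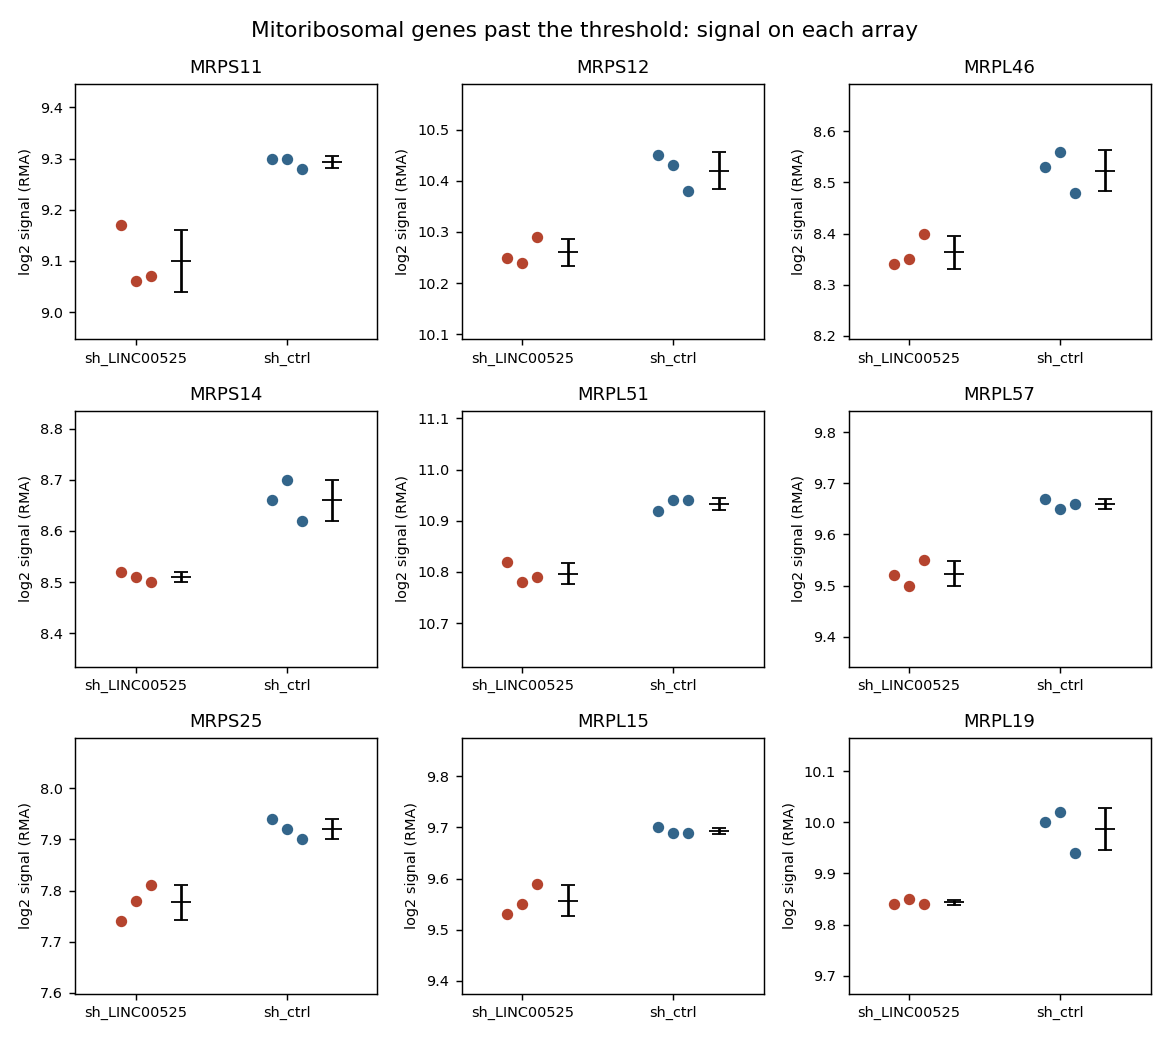
Log2 RMA signal (y axis) of the 9 mitoribosomal genes past the threshold on each of the 3 knockdown arrays (red, left) and 3 control arrays (blue, right). Black marks give the mean and 1 SD, and every panel spans 0.5 log2 units. In each panel all knockdown points lie below all control points.

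Several members with changes as large had larger SEs and did not pass. MRPL42, a large-subunit protein found only in mitochondria, was at 8.41, 8.39 and 8.31 on knockdown arrays and at 8.47, 8.49 and 8.66 on control arrays. Control replicate 3 stood above the rest, and the change was -0.17 ± 0.059 (SE, limma adjusted p = 0.111). MRPL32, which is processed by a mitochondrial protease before it enters the ribosome, was at 8.45, 8.44 and 8.51 on knockdown arrays and at 8.67, 8.66 and 8.54 on control arrays. Here control replicate 3 was the lowest of its group, and the change was -0.16 ± 0.048 (SE, limma adjusted p = 0.0762). Without that array MRPL32 was the single member past the threshold (adjusted p = 0.0498).

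MRPL54 was at 7.78, 7.69 and 7.84 on knockdown arrays and at 7.93, 7.93 and 7.89 on control arrays. Its change was -0.15 ± 0.047 (SE, limma adjusted p = 0.0878). MRPL1, the protein of the stalk beside the exit site for transfer RNA, was at 8.06, 7.97 and 8.07 on knockdown arrays and at 8.18, 8.11 and 8.24 on control arrays. In both genes the groups were separate. MRPL35 had the same change as MRPL1, at -0.14 (limma adjusted p = 0.106).

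The 3 MRPS18 paralogs descend from 1 bacterial gene and take different places in the mammalian ribosome. MRPS18C, in the small subunit, was at 8.73, 8.70 and 8.72 on knockdown arrays and at 8.86, 8.80 and 8.81 on control arrays (log2 change -0.11 ± 0.037 SE, limma adjusted p = 0.108). Its groups did not overlap. MRPS18B, also in the small subunit, was at 8.15, 8.07 and 8.13 on knockdown arrays and at 8.19, 8.13 and 8.22 on control arrays, and MRPS18A, in the large subunit, was at 7.10, 7.13 and 7.19 against 7.28, 7.21 and 7.16. The groups overlapped for both, and neither passed the test (limma adjusted p = 0.402 and 0.348).

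By subunit, 30 of the 49 large-subunit genes (61.2%) and 8 of the 25 small-subunit genes (32%) had every knockdown array below every control array, against 17.9% of all genes. The test called 5 of 49 (10.2%) and 4 of 25 (16%) as lower, against 6.83% of all genes, and the median log2 changes were -0.08 for the large and -0.06 for the small subunit. The difference between subunits was not tested. Within the large subunit, 2 of 29 genes listed with a bacterial counterpart and 3 of 20 listed without one fell, at medians of -0.08 and -0.06. Within the small subunit these counts were 3 of 15 and 1 of 10, both at medians of -0.06. This split lists MRPS18A (large subunit) and MRPS18B (small subunit) as without a counterpart, despite their descent from a bacterial gene. Neither fell. The 8 members with a positive change were MRPS5, MRPL10, MRPS15, MRPS31, MRPL52, MRPS21, MRPS30 and MRPS27, at 0.003 to 0.06, with 0 past the threshold and overlapping groups in each. For some of them the sign depended on the probe set. MRPS5 had other probe sets at -0.09 and -0.15, and 1 of MRPL52 was at -0.20 (limma adjusted p = 0.0329 over all probe sets). All 4 probe sets of MRPS21 were positive. MRPL20-AS1 was at 6.21, 6.14 and 6.33 on knockdown arrays and at 6.34, 6.28 and 6.21 on control arrays, with overlap (limma adjusted p = 0.658).

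The choice of probe set bore on which members passed. The array carries 166 probe sets for the 75 members, and 47 members have more than 1. In 34 of these 47 all probe sets had the same sign. Tested one by one over all 44994 probe sets with 1 symbol, 11 probe sets of 9 members (6.63% of 166) were lower (limma, adjusted p under 0.05) and 0 were higher, against 5.33% lower and 4.76% higher of all probe sets. These 9 members are not the same set as the 9 genes called above, although MRPS11, MRPS12 and MRPS25 are in both. MRPS12 and MRPS25 passed here through probe sets other than those used in the main comparison. Of the probe sets that stood for the 9 genes called above, that of MRPS11 passed and the other 8 did not (adjusted p of 0.0514 to 0.0725). MRPS18C had probe sets at -0.11, -0.24 and -0.15, of which the last 2 passed (adjusted p = 0.00916 and 0.0462). MRPL18, a large-subunit protein, gave -0.13 at the probe set used, and -0.20 and -0.19 at 2 others that passed (adjusted p = 0.0259 and 0.0229). A probe set of MRPS16, a small-subunit protein, fell by 0.29 (adjusted p = 0.0106), whereas the gene's value in the main comparison was -0.05.

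For MRPS11 the probe set used carries the suffix _x_at, which marks probes that can bind related transcripts. Its other probe sets gave log2 changes of -0.16 to 0.03, none past the threshold. Averaged over its probe sets, MRPS11 was at -0.11 (adjusted p = 0.0683). With probe sets averaged, 9 members fell (12%, beside 7.86% of all genes), of which 4 were shared with the main comparison. MRPS18C was at -0.17 in that fit (limma adjusted p = 0.0113). Without the control-based scalings, 12 other processing settings called 20 further members (26.7% of all members) as lower in at least 1 setting and 0 as higher. Of all genes, 7.33% were added as lower and 4.11% as higher in this way. Neither the reported comparison nor any of these 12 settings called the remaining 46. Most of the 20 were called with eBayes with an intensity trend and robust settings. That setting called 27 members lower, 9 of them shared with the main comparison. Among the 20, MRPL1, MRPL3, MRPL34, MRPL47, MRPS34 and MRPS35 were called in that setting alone. The rest of its further members were also called in other settings. Examples are MRPL24, MRPL36 and MRPL49 with dim genes left out, and MRPL20, MRPL35 and MRPL42 with probe sets averaged. MRPL4 and MRPS16 were called only without _s_at, _x_at and _a_at probe sets. Cyclic loess and the replicate block called 0 members, beside 5.08% and 4.10% of all genes called lower.

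MRPS11 and MRPL46, both among the members that fell, lie head to head on chromosome 15, with their start sites 320 bases apart on opposite strands. MRPS12 lies head to head with SARS2, the mitochondrial seryl-tRNA synthetase, with 181 bases between starts on chromosome 19. Their promoter windows are shown because these pairs share the stretch between their starts. The windows are RefSeq sequences of GRCh38.p14, from 250 bases before to 50 after the start, read 5′ to 3′ on the gene's strand. MRPS11 is at chr15:88467458-88467757 (plus strand), MRPL46 at chr15:88467339-88467638 (minus strand) and MRPS12 at chr19:38930694-38930993 (plus strand). Capitals mark the letters CCGGAAG, the core bound by ETS factors such as GABPA, and AAGATGG, the core bound by YY1, on either strand.
MRPS11: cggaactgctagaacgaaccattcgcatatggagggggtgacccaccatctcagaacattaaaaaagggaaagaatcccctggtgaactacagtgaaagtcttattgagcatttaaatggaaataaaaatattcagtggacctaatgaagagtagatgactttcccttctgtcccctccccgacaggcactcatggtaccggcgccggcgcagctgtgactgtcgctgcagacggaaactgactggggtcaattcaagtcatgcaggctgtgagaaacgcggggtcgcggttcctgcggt
MRPL46: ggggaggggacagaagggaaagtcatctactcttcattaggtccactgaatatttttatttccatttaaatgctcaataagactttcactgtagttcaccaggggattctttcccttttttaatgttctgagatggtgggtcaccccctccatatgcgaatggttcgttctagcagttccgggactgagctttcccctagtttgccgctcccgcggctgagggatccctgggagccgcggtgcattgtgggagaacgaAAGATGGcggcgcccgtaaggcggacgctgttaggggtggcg
MRPS12: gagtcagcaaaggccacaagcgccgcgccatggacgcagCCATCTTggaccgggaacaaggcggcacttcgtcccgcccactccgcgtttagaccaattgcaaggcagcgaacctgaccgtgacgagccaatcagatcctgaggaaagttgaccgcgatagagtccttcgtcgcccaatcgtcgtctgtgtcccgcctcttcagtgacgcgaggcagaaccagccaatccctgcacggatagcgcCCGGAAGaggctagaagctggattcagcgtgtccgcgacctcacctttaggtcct

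Head-to-head arrangement was common in the family. Of the 67 coding members with a window in the table, 21 (31.3%) had a coding gene on the other strand whose start lay within 1000 bases upstream, or up to 100 bases inside, against 12.4% of 15843 coding genes. Of the 19 partners outside the family, 3 fell and 1 rose (6.83% and 5.76% of all genes did so), with a median log2 change of -0.06. SARS2 had a change of -0.16 ± 0.049 (SE, limma adjusted p = 0.0781) beside -0.16 for MRPS12. SKA3, a kinetochore protein that starts 106 bases from MRPL57, fell by 0.37 ± 0.054 (SE, limma adjusted p = 0.00522). EME1, a DNA repair nuclease subunit beside MRPL27, fell by 0.25 (limma adjusted p = 0.0107), and MRPL27 itself was at -0.09 (adjusted p = 0.209). PPP1R10, beside MRPS18B, fell by 0.31 (adjusted p = 0.0196). MITD1, beside MRPL30, rose by 0.25 (adjusted p = 0.00981), and MRPL30 was at -0.06 (adjusted p = 0.378).

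Besides CCGGAAG and the core of YY1, another motif was searched. This was GCATGCGC, the core of the site of NRF1, a transcription factor of nuclear genes for mitochondrial proteins. Both strands of every window of a gene were read, and the ETS and YY1 cores can overlap by the letters AAG. The ETS core, CCGGAAG, was in the windows of 29 of 67 members (43.3%), against 16.5% of coding genes. AAGATGG was in those of 23 members (34.3%), against 7.90% of coding genes. GCATGCGC was in those of 6 members (8.96%), against 4.89%. Of the 8 members that fell and had a window, 2 held CCGGAAG, 3 held AAGATGG and 0 held GCATGCGC. These matches describe letters, not binding. Of 8 transcription factors of mitochondrial biogenesis, 1 rose, MYC (0.18, limma adjusted p = 0.0264), and 1 fell, PPARGC1A (-0.22, adjusted p = 0.0232), whose values lay within the range of the Tag controls. Each is 12.5% of that list, against 5.76% of all genes higher and 6.83% lower. NRF1 was at -0.05 with overlapping groups, while GABPA and YY1 were both at -0.12 with separate groups (limma adjusted p = 0.158 for GABPA and 0.0849 for YY1), and none of the 3 passed.

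Other genes of mitochondrial gene expression moved in both directions. Of 4 measured subunits without an MRP symbol, 0 passed: CHCHD1, a small-subunit protein, was at -0.16 ± 0.043 (SE, limma adjusted p = 0.0536) with separate groups, while DAP3, PTCD3 and GADD45GIP1 were at 0.01, 0.01 and -0.04. Of 26 genes of ribosome assembly and rRNA modification 2 fell and 2 rose (7.69% each), at a median of -0.07. These shares were near those of all genes, of which 6.83% fell and 5.76% rose. MTERF4, which brings an rRNA methyltransferase to the large subunit, fell by 0.22, and MRM2, a methyltransferase of large-subunit rRNA, fell by 0.21 (limma adjusted p = 0.0191 and 0.0451). TFB1M, which dimethylates small-subunit rRNA, rose by 0.19, and RPUSD3, a pseudouridine synthase family member, rose by 0.17 (limma adjusted p = 0.0186 and 0.0347).

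Of 17 translation factors and proteins of mRNA handling, 2 fell (11.8%) and 1 rose (5.88%), against 6.83% and 5.76% of all genes. GFM1, the mitochondrial elongation factor that moves the ribosome along, was at 8.96, 8.94 and 9.02 on knockdown arrays and at 9.14, 9.17 and 9.14 on control arrays (limma adjusted p = 0.0248). TACO1, a translational activator of cytochrome oxidase subunit I, fell by 0.16 (adjusted p = 0.0417). PNPT1, a mitochondrial RNA-degrading enzyme and a known interferon-stimulated gene, rose by 0.63 ± 0.047 (SE, limma adjusted p = 0.000214), the largest change of any gene in these lists on an absolute scale. Of 9 genes of mitochondrial DNA transcription and maintenance 2 fell (22.2%, against 6.83% of all genes) and 0 rose, at a median of -0.09. In 7 of the 9, every knockdown array lay below every control array (77.8%, against 17.9% of all genes). Those that fell were TEFM, the elongation factor of mitochondrial RNA polymerase, by 0.23, and MTERF1, a terminator protein, by 0.26 (limma adjusted p = 0.0135 and 0.0188). TFAM, which packages mitochondrial DNA and starts its transcription, was at -0.15 with separate groups (adjusted p = 0.0676).

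The medians of the DNA transcription, assembly and biogenesis factor lists, at -0.09, -0.07 and -0.07, were below the mitoribosomal median of -0.06. Those of the translation factors (-0.05), the 4 subunits without an MRP symbol (-0.015) and 2 larger families were above it. Of 82 genes with symbols of nuclear-encoded subunits of oxidative phosphorylation, 1 fell (1.22%) and 0 rose, against 6.83% and 5.76% of all genes. Their median log2 change was -0.02, and every knockdown array lay below every control array for 27 (32.9%, against 17.9% of all genes). Some of the 82, such as COX7B2 and COX8C, had values within the Tag range, whereas all 75 mitoribosomal genes lay above it. The gene that fell was ATP5PB, of the stator of ATP synthase, by 0.17 (limma adjusted p = 0.0430). Of 75 genes with symbols of cytosolic ribosomal proteins 1 fell (1.33%) and 0 rose, against 6.83% and 5.76% of all genes, with a median of 0.01. Every knockdown array lay below every control array for 4 of these 75 and above for 15, against 17.9% and 12.9% of all genes. The 4 include RPS19BP1 (-0.11), which the symbol rule takes in although it is named as a binding protein of RPS19. The gene that fell was RPL27A, whose probe set had values of 3.02 to 3.72, within the range of the Tag controls. Many cytosolic ribosomal genes had signals above the highest mitoribosomal value, 10.94, and the families were not set side by side after cyclic loess. Differences between these families and the mitoribosomal genes were not tested.

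**Figure D3:**
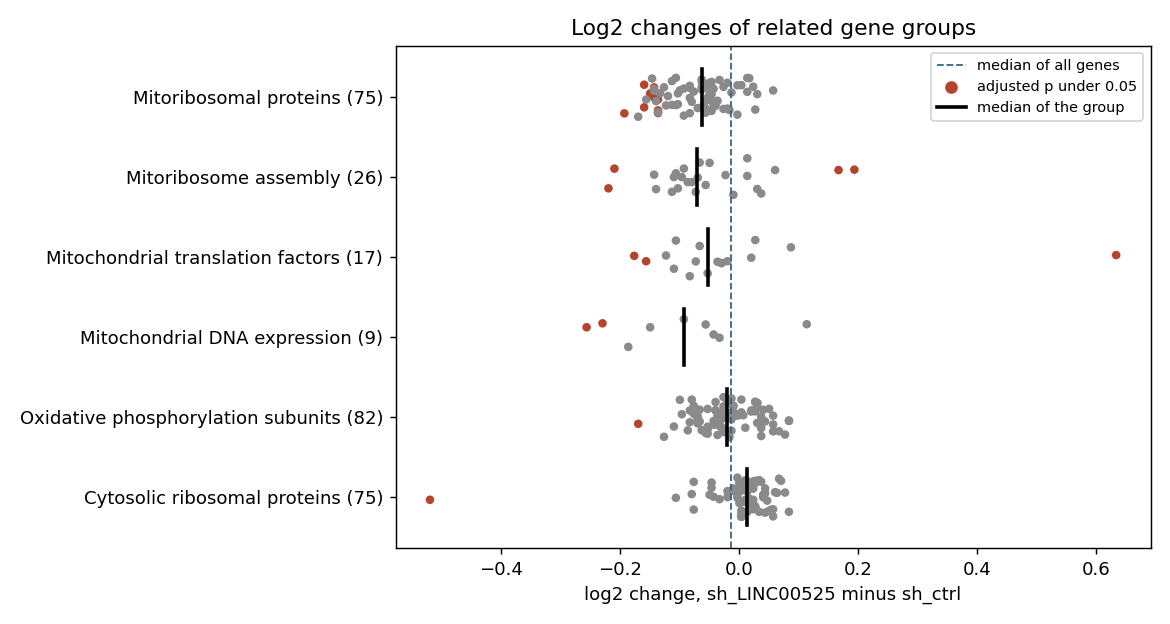
Log2 change of each gene, knockdown minus control (x axis, in log2 units), in the mitoribosomal family and in 5 related groups, with the number of genes in brackets. Red points passed the test, black bars are group medians and the dashed line is the median of all genes, at -0.01. The medians of DNA expression (-0.09), assembly (-0.07), mitoribosomal (-0.06) and translation factor genes (-0.05) lie left of that line, and those of oxidative phosphorylation and cytosolic ribosomal genes, at -0.02 and 0.01, lie on or near it.

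RMA values measure each gene against the rest of its array. Bacterial hybridization controls, added during array processing, were higher on knockdown arrays by 0.28 log2 units, and poly-A controls, added to the RNA, by 0.14. Scaled to hybridization controls, the median of all genes moved to -0.29 and that of the members to -0.34, with all 75 members called lower beside 83.2% of all genes. Scaled to poly-A controls, these medians were -0.15 and -0.20, with 65 members lower beside 46.3% of all genes. Such scaling moves every gene alike, so the distance of 0.05 between the medians is the same by construction. Under cyclic loess the distance was 0.03.

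**Figure D4:**
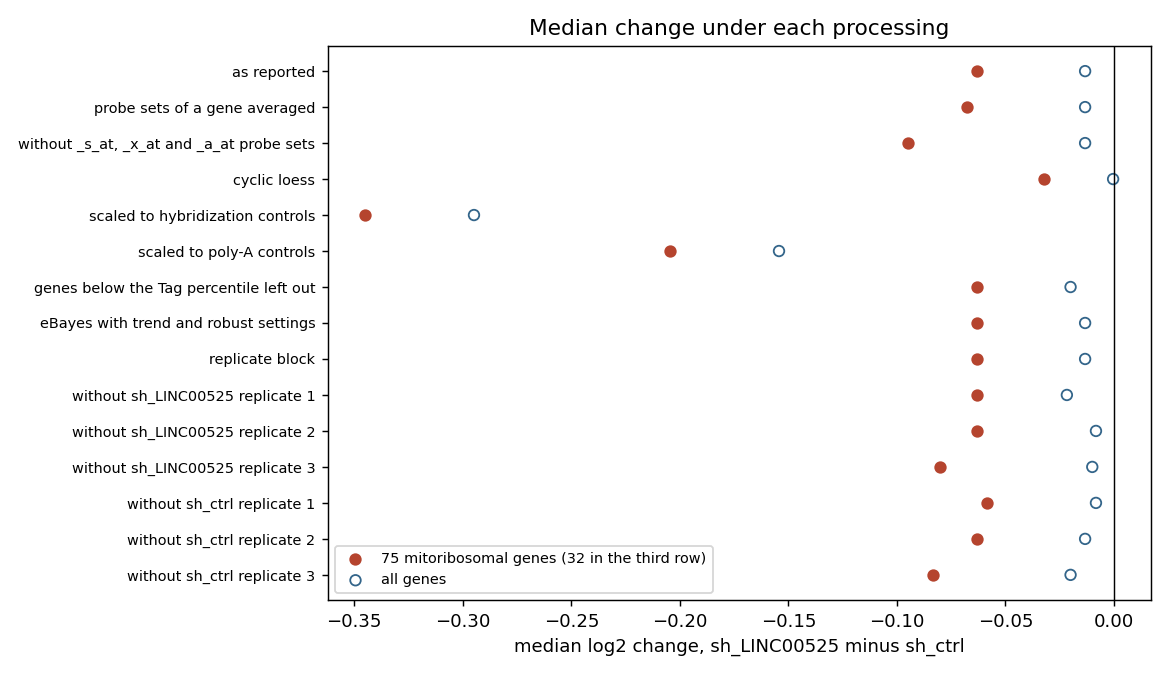
Median log2 change, knockdown minus control (x axis), of the mitoribosomal genes (red) and of all genes (open blue) under the reported processing and 14 alternatives. The red point lies left of the blue one in every row, by 0.03 to 0.08 log2 units, a distance that the scalings to controls leave as it was.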

How the data were processed

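The deposited values are on a log2 scale and cover 49372 probe sets on 6 arrays. The submitters' processing notes name RMA as what the authors used, with no software or version given in the sources used here. RMA equalizes the distribution of the arrays, so a change shared by most genes is removed. The table holds no detection calls. Gene names came from the annotation of the platform, in which 44994 probe sets had 1 symbol, 1832 several and 2546 none. Symbols were updated by gene identifier through the GRCh38.p14 gene table. The probe set with the highest mean over the 6 arrays stood for each of 18132 genes. A further 4 genes with such symbols, among them MRPL23, MRPL53 and MRPS24, are only on probe sets shared with other gene entries and are not analysed here. Knockdown was set against control by limma (version 3.58.1, under R 4.3.3; lmFit, then eBayes, 2-sided, no covariate), with Benjamini-Hochberg adjustment over all genes. Errors are SE of the fit or SD over 3 arrays, and the number of arrays limits the precision. The fit was tested on simulated data.

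The members, gene lists and tests were chosen with earlier results of these data known. Values on every array are given for members past the threshold, the 4 largest changes not past it and the MRPS18 paralogs. Other lists name genes past the threshold. Further genes (MRPL35, MRPL18, MRPS16, TFAM, the subunits without an MRP symbol, head-to-head partners, NRF1, GABPA, YY1 and KGD4) were chosen after their values were seen. Cytosolic ribosomal proteins are coding symbols RPL, RPS or RPLP with a digit, without S6 kinases and fusions, a rule that also takes in RPS19BP1. Same-numbered arrays showed correlations of deviations of 0.092, 0.058 and -0.010, so arrays sharing a number were not treated as pairs. Alternatives varied probe-set choice, normalization, scaling, the filter on dim genes, variance moderation, the replicate block, and left out each array. Promoter windows came from RefSeq.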

Additional observations from a re-analysis of the deposited data

How the results depend on the processing

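The count of members higher was 0 under all alternatives run, and the members' median kept its sign in each. The count of members lower was 9 as reported (12%, beside 6.83% of all genes lower). It was 3 of the 32 members left without _s_at, _x_at and _a_at probe sets (9.4%, beside 2.81% of all genes lower in that fit). After cyclic loess it was 0, beside 5.08% (16 members at an unadjusted limma p under 0.05). Scaled to hybridization and poly-A controls it was 75 and 65, beside 83.2% and 46.3%. Without genes below the 95th percentile of Tag values it was 18 (24%, beside 15.1%). With an intensity trend and robust eBayes it was 27 (36%, beside 11.3%). With the replicate block it was 0, beside 4.10% (24 members at an unadjusted limma p under 0.05). With an array left out it was 0 to 1, beside 2.60% to 4.37%. The replicate block left 1558 genes called in all. The members' median, -0.06 as reported, was -0.095 without _s_at, _x_at and _a_at probe sets and -0.032 after cyclic loess. It was -0.345 with hybridization and -0.204 with poly-A scaling, and -0.083 to -0.058 with an array left out. Genes called numbered 2284 as reported and 493 without those probe sets, 15317 and 8893 under the scalings, 2184 after cyclic loess, 3085 with the Tag filter, 3502 with trend and robust settings, and 1104 to 1574 with an array left out. Current symbols gave the same 75 members, and coding members alone gave the same counts. The cause of these shifts was not tested, apart from fewer arrays or genes entering some fits. With a median SE of 0.039, most changes of the members' size did not pass, which does not show that they are absent.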

Other observations

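KGD4, the current name of the gene once called MRPS36, encodes a subunit of the oxoglutarate dehydrogenase complex and is outside the rule. It was at 8.79, 8.83 and 8.71 log2 units on knockdown arrays and at 8.72, 8.78 and 8.76 on control arrays, with overlap between groups (limma adjusted p = 0.792). MRPS18C was called lower in 4 of the 12 settings other than the control scalings, and no other member that missed the threshold as reported was called in more than 3.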
